A study of Homo sapiens with 6 samples.

Results

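The miR-148 and miR-152 family comprises the microRNAs miR-148a-3p, miR-148b-3p and miR-152-3p. Its probes were found by the miRBase accessions MIMAT0000243, MIMAT0000759 and MIMAT0000438, and 3 of the 1212 probes of the table carried one of them. Each of the 3 rows held that accession alone. The microRNAs were measured on 1-colour arrays in Huh7, an established line of human hepatocellular carcinoma cells. As the labels state, the control group (3 arrays) was Huh7 without metformin and the treated group (3 arrays) was Huh7 in 10 mM metformin, a biguanide drug for diabetes, both kept for 72 h. All cells were grown in RPMI medium with fetal bovine serum. The comparison asks how exposure to the drug alters microRNA levels in liver cancer cells, and Huh7, a single line in culture, is its only model here. Nothing in the labels says that replicates came from separate cultures, so a p-value here reflects the spread among these 6 samples, and that spread may be technical.

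MicroRNAs are short RNAs that guide Argonaute proteins to messenger RNAs, mainly by pairing of the seed near their 5′ end, and thereby lower the output of those messages. The family is known for its repression of DNMT1, the maintenance DNA methyltransferase, and of HLA-G, a non-classical HLA molecule. miR-148a is abundant in liver, where it has been linked to hepatocyte differentiation and to repression of the low density lipoprotein receptor.

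The mature sequences are shown for the seed that defines the family and for the bases at which its members differ. They are from RefSeq (GRCh38.p14), where 3 of the 3 members matched by name, and are written 5′ to 3′ with the seed, bases 2 to 8, in capitals.
miR-148a-3p: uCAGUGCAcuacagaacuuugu
miR-148b-3p: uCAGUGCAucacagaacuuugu
miR-152-3p: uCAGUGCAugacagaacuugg

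All 3 shared the seed CAGUGCA, and every difference between them lay outside it. Counted from 1 at the 5′ end, with the first-named member's base first, miR-148a-3p and miR-148b-3p differed by C9U and U10C, and had the same base at 20 of 22 positions. miR-148a-3p and miR-152-3p differed by C9U, U10G and U20G over the 21 positions they share. miR-148b-3p and miR-152-3p differed at 2 of 21 positions, by C10G and U20G. The probe sequences were not used here, so how far each probe binds the other members was not tested.

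Among 2370 mature microRNA names in the RefSeq table, 3 held these 7 bases at positions 2 to 8 (0.127%), and they were the family members. The table is not complete. A further 5 names held the same bases 1 position earlier, at positions 1 to 7, among them miR-130b-3p, miR-301a-3p and miR-301b-3p. Another 6 held them further in, for example miR-139-5p from position 5 and miR-17-5p from position 12. These are matches of letters (strand as listed) and not target sites, and no array value is given for these names because the files do not pair them with probes.

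The family is spread over 3 chromosomes and lies within the span of longer genes in RefSeq. The hairpin precursors are shown to place the mature strand, in capitals, on the 3′ arm of each.
MIR148A hairpin: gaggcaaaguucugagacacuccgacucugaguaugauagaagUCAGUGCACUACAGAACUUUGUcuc
MIR148B hairpin: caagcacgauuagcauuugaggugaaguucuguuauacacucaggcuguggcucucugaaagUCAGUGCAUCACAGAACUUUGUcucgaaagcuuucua
MIR152 hairpin: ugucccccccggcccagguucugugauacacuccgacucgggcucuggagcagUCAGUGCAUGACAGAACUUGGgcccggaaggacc

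Mature miR-148a-3p is encoded at chr7:25949922-25949943 on the minus strand, within the span of the long non-coding RNA LOC105375199. Mature miR-148b-3p is encoded at chr12:54337278-54337299 on the plus strand, within the span of COPZ1. Mature miR-152-3p is encoded at chr17:48037174-48037194 on the minus strand, within the span of COPZ2. COPZ1 and COPZ2 encode paralogous subunits of the COPI vesicle coat. Exons, introns and strand of these genes were not used here. The probes are listed for mature microRNAs, and transcripts of these genes were not measured. Whether a probe also binds the hairpin, which holds the mature sequence, was not tested.

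No member of the family passed the test for a change with metformin (0 of 3 at an adjusted p under 0.05 by limma), against 0% of the 1038 probes tested. At an unadjusted p under 0.05 there were 0 of 3 members, against 2.7% of all probes. The group values did not separate for any member (0 of 3), against 7.61% of all probes. The mean log2 intensity was higher with metformin for 2 members and lower for 1, and none of the differences exceeded the spread between arrays.

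The miR-148a-3p probe was the brightest of the family and, in the deposited values, the steadiest. Its processed intensity was 147.9, 158.1 and 131.0 on control replicates 1, 2 and 3, and 156.2, 162.2 and 142.9 on metformin replicates 1, 2 and 3. The lowest array was control replicate 3 and the highest metformin replicate 2, and the groups overlapped. The means were 146 ± 13.7 in control and 154 ± 9.88 with metformin (SD, n = 3). The log2 difference, metformin minus control, was 0.08 (SE 0.21, 95% interval -0.42 to 0.58; limma adjusted p = 0.991), a fold of 1.06. The 2-sided exact permutation p was 0.6, where 3 against 3 arrays cannot go below 0.1.

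The miR-148b-3p probe had intensities of 50.1, 41.6 and 63.3 on control replicates 1, 2 and 3, and 63.1, 52.4 and 56.2 on the metformin arrays in the same order. Control replicates 2 and 3 were the lowest and highest of all 6 arrays, so the metformin values lay inside the control range. The means were 51.7 ± 10.9 in control and 57.2 ± 5.42 with metformin (SD, n = 3). The log2 difference was 0.16 (SE 0.25, 95% interval -0.40 to 0.73; limma adjusted p = 0.991), a fold of 1.12, with a 2-sided exact permutation p of 0.5. Without control replicate 2 the difference fell to 0.02, and without control replicate 3 it was 0.32.

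The miR-152-3p probe was the dimmest and most variable member. It measured 31.9, 21.9 and 37.0 on control replicates 1, 2 and 3, and 18.7, 29.7 and 35.9 on the metformin arrays in that order. Metformin replicate 1 was the lowest array, control replicate 3 was the highest, and the groups overlapped over most of their range. The means were 30.3 ± 7.68 in control and 28.1 ± 8.71 with metformin (SD, n = 3). The log2 difference was -0.12 (SE 0.33, 95% interval -0.89 to 0.64; limma adjusted p = 0.991), a fold of 0.917, with a 2-sided exact permutation p of 0.6. Its sign depended on single arrays: the difference was 0.14 without metformin replicate 1 and 0.04 without control replicate 3.

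**Figure D1:**
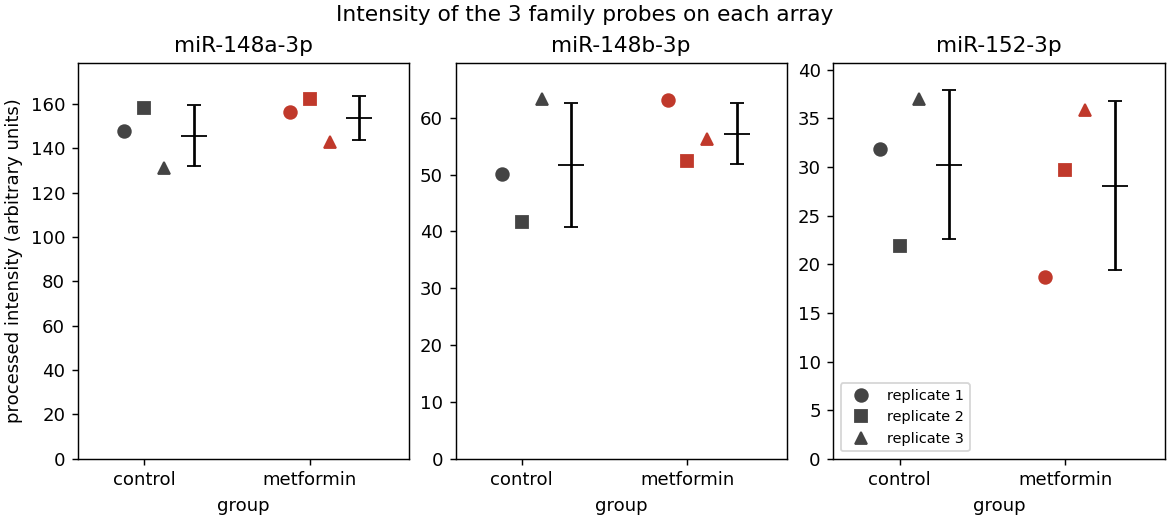
Processed intensity (y axis, linear, from 0, own scale per panel) of the 3 family probes in control and metformin arrays. Each symbol is 1 array, marked by replicate number, and the bars are the mean ± SD (n = 3). The groups overlap in every panel, and miR-152-3p spans 18.7 to 37.0 over the 6 arrays.

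The 3 probes stood at different places in the brightness range of the array. Brightness also depends on the probe itself, so these places do not rank the microRNAs by abundance. Intensity averaged over the 6 arrays (geometric mean) was 149 for miR-148a-3p, rank 83 of 1038. It was 53.9 for miR-148b-3p, rank 153, and 28.3 for miR-152-3p, rank 325. miR-148a-3p lay between 5.57 and 7.11 times the median of its array and miR-148b-3p between 1.76 and 2.72 times. miR-152-3p lay between 0.806 and 1.57 times the array median, among the many probes of low signal. The array medians themselves ranged from 22.8 to 24.1. Background was not available for single probes, so whether miR-152-3p was above it is not known.

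In the deposited values, the spread within groups followed the same order. The within-group SD on the log2 scale was 0.12 for miR-148a-3p, and 30 of the 260 brightest probes (the upper 25%, mean intensity 32.5 or higher) had a smaller one. For miR-148b-3p it was 0.23, near the middle of that set, where 128 of the 260 were smaller. miR-152-3p lay outside that set, with an SD of 0.44, and 612 of the 1038 probes were tighter. From lowest to highest array the 3 probes spanned 1.24-fold, 1.52-fold and 1.98-fold, respectively. After quantile normalization, the limma SEs of the metformin difference were nearly equal for miR-148a-3p (0.218) and miR-148b-3p (0.219). As reported they were 0.214 and 0.245, so the gap in spread between miR-148a-3p and miR-148b-3p depended on the scaling.

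How large a change could have gone unseen depended on these spreads and on the variance that limma borrows from all probes. The 95% interval, not adjusted for the number of probes, left out a 2-fold change of intensity in 3 of 3 members. The same held for 54.9% of all probes and for 88.1% of the 260 brightest, so the count is no feature of the family. For miR-148a-3p the interval ran from 1.34-fold lower to 1.49-fold higher, which also excluded a 1.5-fold change, as for 5.3% of all probes and 12.7% of the 260 brightest. That 1.5-fold limit held under only 4 of 16 other settings. From the variance of miR-148a-3p alone (unmoderated linear model), the interval was narrower, -0.19 to 0.35 on the log2 scale. The interval of miR-148b-3p reached 1.66-fold higher, and that of miR-152-3p 1.85-fold lower. For miR-152-3p the exclusion of a 2-fold change was lost under 5 of 16 other settings. The lowest bound was -1.19 on the log2 scale, without metformin replicate 3. From its own variance alone (unmoderated linear model) the bound was -1.12, so the exclusion relied on variance borrowed from other probes. Because background correction is not stated, a bound on intensity need not bound abundance.

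**Figure D2:**
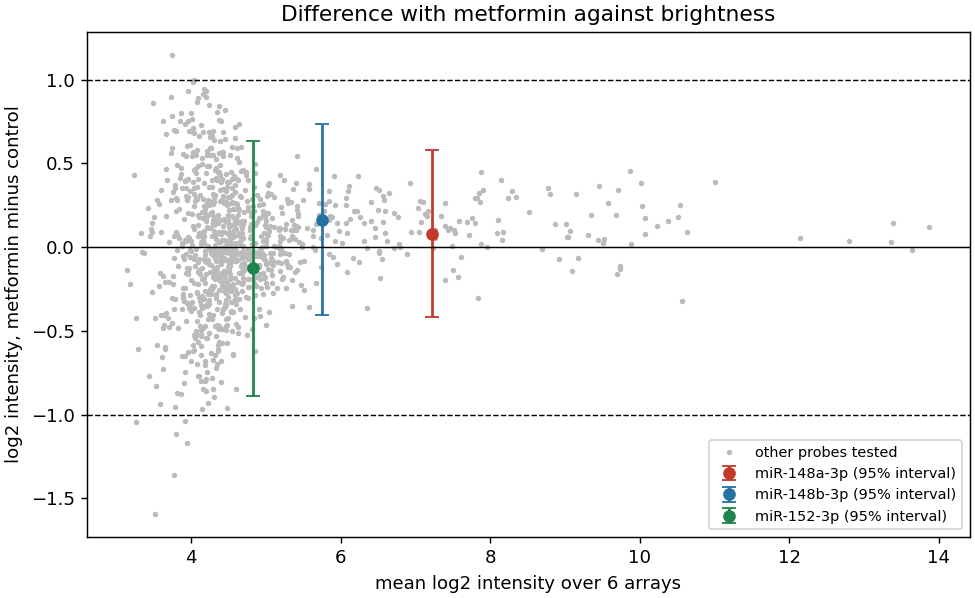
Difference in log2 intensity, metformin minus control (y axis), against mean log2 intensity over the 6 arrays (x axis) for the 1038 probes tested. Grey points are other probes, coloured points the family with 95% intervals, and dashed lines mark 2-fold changes. All 3 family intervals include 0, and differences scatter more among dim probes.

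Ratios between members were taken within each array, where a scaling factor shared by the whole array cancels but an additive background does not. The 2 ratios that use miR-152-3p, which is not known to be above background, are therefore ratios of intensity only and do not show whether the microRNAs moved unequally. For none of the 3 ratios did the difference between groups exceed the spread over arrays. The log2 ratio of miR-148a-3p to miR-148b-3p averaged 1.51 ± 0.44 in control arrays and 1.43 ± 0.18 with metformin (SD, n = 3; difference -0.08, 2-sided exact permutation p = 0.9). That of miR-148a-3p to miR-152-3p averaged 2.30 ± 0.52 in control arrays and 2.50 ± 0.54 with metformin (SD, n = 3; difference 0.21, 2-sided exact permutation p = 0.7).

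The ratio of miR-148b-3p to miR-152-3p was steady in control and not with metformin, through 1 array. Its log2 ratio was 0.65, 0.93 and 0.77 on control replicates 1, 2 and 3, and 1.75, 0.82 and 0.65 on metformin replicates 1, 2 and 3. Metformin replicate 1 stood alone, as the array where miR-152-3p was lowest and miR-148b-3p second highest. The difference was 0.29 (2-sided exact permutation p = 0.7), and without metformin replicate 1 it turned to -0.05. After Benjamini-Hochberg adjustment over the 3 ratios, all 3 exact permutation p-values were 0.9.

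**Figure D3:**
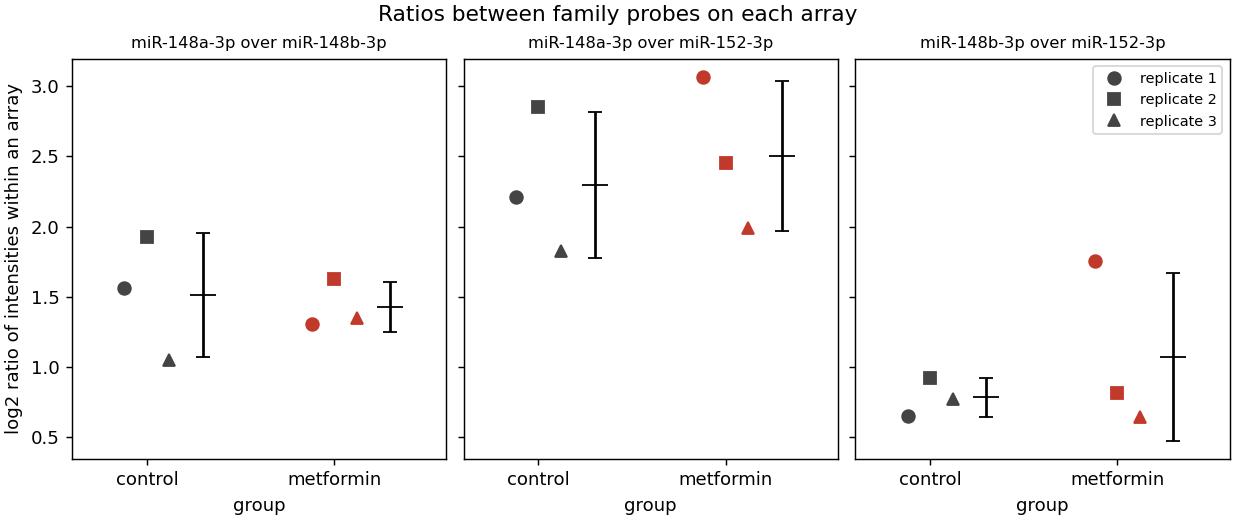
Log2 ratio of intensities between 2 family probes on the same array (y axis) in control and metformin arrays, 1 panel per pair. Symbols are arrays by replicate number and bars the mean ± SD (n = 3). Metformin replicate 1 lies apart at 1.75 for miR-148b-3p over miR-152-3p, and elsewhere the groups overlap.

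No common course of the 3 probes was seen across the 6 arrays, which are too few to settle whether one exists. Over the 6 arrays, Pearson's r of log2 intensity between miR-148a-3p and miR-152-3p was -0.69 (exact permutation p = 0.0917, 0.275 after adjustment over 3 pairs), with Spearman's rho -0.77 (exact permutation p = 0.103). Without the 2 arrays farthest from the median of miR-148a-3p (control replicate 3 and metformin replicate 2), r was -0.94. For miR-148a-3p and miR-148b-3p, r was -0.51 (exact permutation p = 0.267, adjusted 0.4) and rho -0.60 (exact permutation p = 0.242), with r = -0.29 without the same 2 arrays. For miR-148b-3p and miR-152-3p, r was 0.20 (exact permutation p = 0.661, adjusted 0.661) and rho 0.37 (exact permutation p = 0.497), and r turned to -0.76 without the 2 arrays farthest from the median of miR-148b-3p (control replicates 2 and 3). No pair passed the test. The r values without 2 arrays rest on the few arrays left after removal by value, so they only describe and carry no test. The points share each array's scaling and include both groups, and r was not computed under other scalings.

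The labels name no batch, but the place of an array in the deposit was also used as a block, in an alternative fit. The mean of miR-152-3p was 24.2 over the first 3 arrays deposited (control replicates 1 and 2, metformin replicate 1) and 34.2 over the last 3. With that block, its metformin difference was -0.34 (limma adjusted p = 0.986). miR-148b-3p averaged 51.6 and 57.3 over the same sets, and miR-148a-3p 154 and 145. With the block their differences were 0.12 and 0.12 (limma adjusted p = 0.986 for both). The part of deposit order in these values was not tested. Arrays also differed in missing values, with 113 null cells on metformin replicate 2 and between 3 and 36 on the others, and no family cell was null.

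The probes most like each member across the 6 arrays were sought among 258 others in the brightest 25%, by Pearson's r of log2 intensity. The closest of 258 over 6 arrays is high by selection, so the values only describe. The files do not pair these probes with microRNA names, so they are given by accession. For miR-148a-3p the highest r was 0.84 (MIMAT0016851), followed by 0.81 (MIMAT0018356) and 0.79 (MIMAT0018105). For miR-148b-3p it was 0.97 (MIMAT0004983), 0.96 (MIMAT0000261) and 0.94 (MIMAT0003218). For miR-152-3p it was 0.99 (MIMAT0000427), 0.97 (MIMAT0003247) and 0.94 (MIMAT0009448). Mean intensity of the probes listed ran from 32.5 to 853, where the brightest 25% began at 32.5. The closest probes to miR-152-3p, at r of 0.99 and 0.97, had means of 33.3 and 33.0, near that limit. The 3 sets share no probe, which says little when each holds only 3 of 258.

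**Figure D4:**
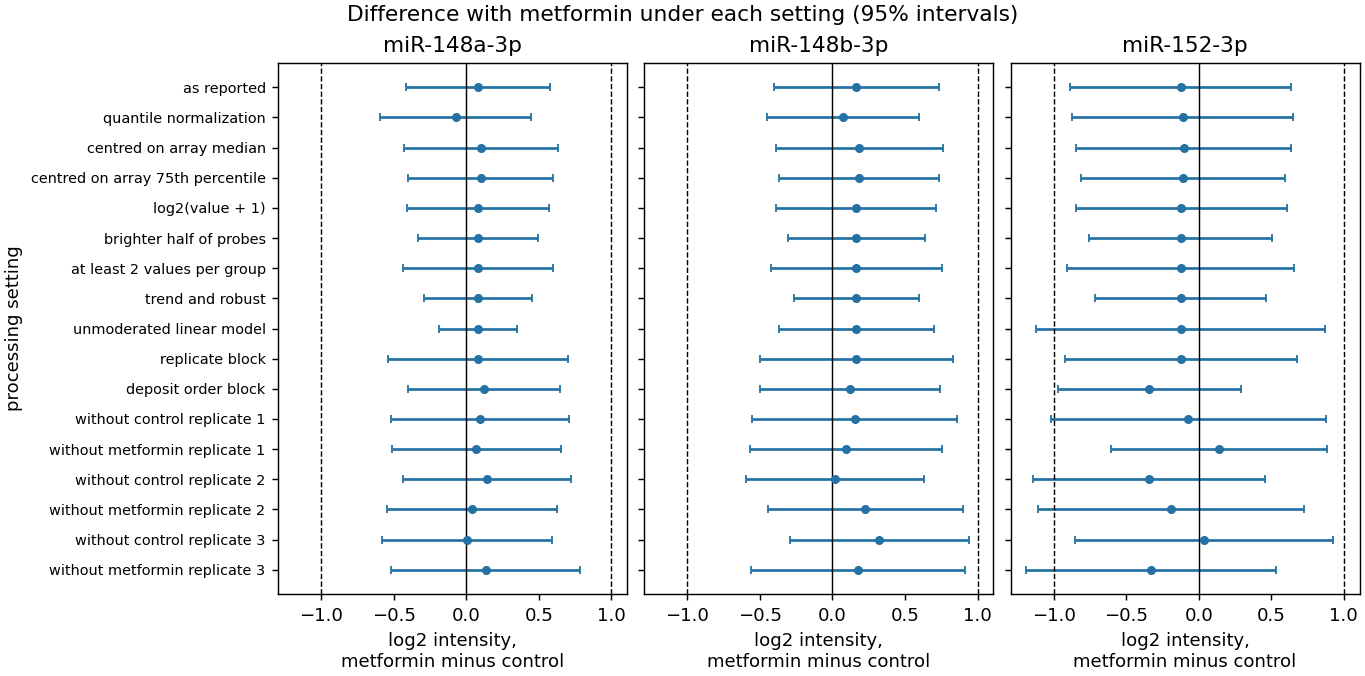
Difference in log2 intensity, metformin minus control (x axis), of each family probe as reported and under the 16 other settings (y axis). Points are estimates, bars 95% intervals, and dashed lines 2-fold changes. Every interval includes 0, and the miR-152-3p estimate moves most, from -0.34 to 0.14.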

How the data were processed

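Mature microRNAs were measured in 6 Huh7 samples, with RNA labelled with Hy5 using the miRCURY LNA kit, per the labels' protocols. The deposited intensity values are linear and had been processed by the authors, as judged from the values (all above 0, nearly equal column medians). For scanning, background correction and scaling, the method is not given by the labels or the file header. Log2 intensities of the 1038 probes measured on every array (174 had a null) were fitted with limma 3.58.1 in R 4.3.3 (lmFit, eBayes), with Benjamini-Hochberg adjustment over all of them and a threshold of 0.05. The procedure was tested on simulated data with independent normal noise for each probe. Such data hold no effect shared by a whole array, so the test does not cover one. Single values were compared by exact permutation tests (scipy 1.17.1). Depth has no meaning for arrays, and their number limits the precision.

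The members and lists were chosen with earlier results of these data known. Named probes were the 3 members and, for each, the 3 of the brightest 25% of probes with the highest Pearson's r. Names of the members come from the definition of the family. The other lists planned (5p strands, microRNAs with a shifted seed, the miR-29 family, cell type markers) were not analysed here, because neither the files nor the RefSeq tables pair their accessions with names. The identity of the cells was therefore not checked against marker microRNAs. All 6 columns were used. Replicate numbers were not taken as pairs: the deviations of same-numbered arrays correlated at 0.01, -0.27 and -0.02 for numbers 1, 2 and 3, and no label pairs them. The alternatives tried were other scalings, filters, variance models and blocks, and leaving out each array.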

Additional observations from a re-analysis of the deposited data

How the results depend on the processing

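None of the 16 alternative settings called a family probe, or any other probe, past the threshold by limma. As reported, 28 of 1038 probes had an unadjusted p under 0.05, and that number was 10 of the 519 brighter probes, 18 with trend and robust settings, 24 with the replicate block and 50 with the deposit-order block. It was 23 to 44 with 1 array omitted, the highest without control replicate 2. The sign of miR-148b-3p held under all 16. The miR-148a-3p difference turned from 0.08 to -0.074 after quantile normalization, and lay between 0.0060 and 0.14 with any 1 array omitted. The miR-152-3p difference lay between -0.34 and 0.14 in such fits, turning to 0.14 without metformin replicate 1 and 0.04 without control replicate 3. That of miR-148b-3p ranged from 0.02 to 0.32. With the replicate block the 3 differences were the same by construction (0.08, 0.16 and -0.12 on the log2 scale), and no call changed. Leaving out 1 array, the ratio of miR-148a-3p to miR-148b-3p differed by -0.32 to 0.12, that of miR-148a-3p to miR-152-3p by -0.075 to 0.48, and that of miR-148b-3p to miR-152-3p by -0.051 to 0.50. Signs turned without control replicate 2 for the first (0.12), and without metformin replicate 1 (-0.075) or control replicate 3 (-0.03) for the second. The third turned without metformin replicate 1 (-0.051). The planned lists and their alternatives were not run for want of names.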
